A study of Mus musculus with 6 samples.

Results

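The genes described here encode parts of the axoneme, the microtubule core of motile cilia, and the factors that assemble it. They were chosen by name as 32 genes of the dynein arms, radial spokes, central pair and their partners, and every probe set whose single annotated symbol was one of them was taken. Of the 32 genes, 31 had such a probe set, out of 18193 named genes on the arrays. Cfap44 had none and is not analysed here. The 31 genes were read by 49 probe sets, 11 on chip A and 38 on chip B, and 18 of them by a single probe set.

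RNA came from 3 populations of OMP-GFP mice, in which GFP stands in for the coding region of Omp, the olfactory marker protein gene. One consisted of mature olfactory sensory neurons (OSNs) isolated by their GFP fluorescence, another of the olfactory epithelium that remained once these neurons had been removed (called the residual fraction below), and the last of brain with the olfactory bulbs taken out. All 3 came from mice that carry this allele. About 500000 cells gave the OSN RNA and about 2500000 cells the residual RNA. The sort follows the activity of 1 promoter, and Omp is also active in vomeronasal neurons. The number, age and zygosity of the animals are not stated in the sources at hand. Each population was hybridised to 1 Affymetrix array of chip A and 1 of chip B, so no value below has a replicate, an error between animals or a p-value. The question set by the title is which transcripts are enriched in OSNs.

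In a motile cilium, doublet microtubules surround a central pair. Dynein arms attached to the doublets make them slide, and the radial spokes pass control signals from the central pair to the arms. Multiciliated cells of the respiratory epithelium and the ependyma use this machinery, as do sperm. OSNs carry long sensory cilia on their dendritic knobs, where odorant receptors sit, and mammalian olfactory cilia are known to lack dynein arms and to be immotile. Transcription of axoneme genes is known to depend on RFX factors, which bind the X-box, and on the forkhead factor Foxj1.

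Signals are the deposited probe set values on a linear scale, scaled to a common mean on each array. A signal was treated as below the floor when it was under the lower quartile of its chip (70.3 on chip A, 79.7 on chip B), and such signals were raised to the floor before ratios were taken. A ratio with its lower signal below the floor is given as "at least". A gene entered a comparison, and is called counted there, when at least 1 of the pair of arrays compared gave it a signal at or above the median of its chip (222 for chip A, 243.7 for chip B). Signals of different probe sets are not comparable with each other, so levels are compared only across populations within 1 probe set. In such bulk RNA, fewer cells of a type and less RNA per cell cannot be told apart.

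The promoters shown next are those of the axoneme genes with the 3 highest ratios of OSNs to the residual fraction among genes with a motif match upstream of their start. They are printed because these genes were high together in OSNs and because the X-box is the known binding site of RFX factors. RefSeq promoter windows of GRCm38.p6, from 250 bases before to 50 bases after a gene's start, were found for 25 of the 31 genes, in 29 windows. Both strands were searched for a single X-box site (GTTGCCA), for a paired X-box site, in which a copy of that site faces an inverted copy with some bases left free and which can overlap the single site, and for a forkhead core (GTAAACA). The 250 bases before the start are printed 5′ to 3′ on the gene's strand, and capitals mark the motif matches. The window of Pifo lies at chr3:106001498-106001747, that of Hydin at chr8:110266727-110266976 and that of Tekt1 at chr11:72361883-72362132. Pifo and Tekt1 lie on the minus strand and Hydin on the plus strand.
Pifo: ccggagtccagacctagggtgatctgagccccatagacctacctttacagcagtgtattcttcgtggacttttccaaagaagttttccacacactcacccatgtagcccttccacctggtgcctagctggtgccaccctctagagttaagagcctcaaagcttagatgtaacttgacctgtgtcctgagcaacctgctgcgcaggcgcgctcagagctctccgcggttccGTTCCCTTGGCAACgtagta
Hydin: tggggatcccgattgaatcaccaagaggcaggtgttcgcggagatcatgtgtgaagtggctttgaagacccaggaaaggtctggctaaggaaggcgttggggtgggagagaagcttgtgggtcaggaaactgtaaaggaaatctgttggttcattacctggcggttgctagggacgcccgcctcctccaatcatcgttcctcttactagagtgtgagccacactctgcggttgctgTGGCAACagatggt
Tekt1: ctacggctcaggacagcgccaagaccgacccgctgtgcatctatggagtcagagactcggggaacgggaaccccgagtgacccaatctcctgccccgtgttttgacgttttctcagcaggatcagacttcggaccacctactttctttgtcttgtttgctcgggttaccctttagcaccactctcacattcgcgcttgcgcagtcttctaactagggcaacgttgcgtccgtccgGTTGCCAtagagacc

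In these 3 promoters the single X-box site began 13 (Pifo), 14 (Hydin) and 15 (Tekt1) bases before the start. Pifo and Hydin carried it on the opposite strand, as TGGCAAC, and in Pifo it formed the right side of a paired site. The single site was found in these 3 of the 25 axoneme genes with a window (12%), against 840 of 17491 protein-coding genes (4.8%). The paired site was found in 1 of the 25 genes and in 87 of all genes (0.497%). The forkhead core was found in Ak7 and Cfap43, 2 of the 25 genes (8%), against 603 of all genes (3.45%). Of 66 further axoneme genes with a window, on lists fixed for comparison and described below, 19 held the single site (28.8%), and 15 of their 24 matches began within 50 bases of the start. A match describes these letters in this window and shows no binding.

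The labels were checked first. Omp read 11057 in OSNs and 2.25% of that in the residual fraction on its well-measured probe set. All 6 fixed OSN markers were highest in OSNs. All 4 horizontal basal cell and all 4 neutrophil and marrow markers were highest in the residual fraction, and all 4 brain neuron and 3 brain glia markers in brain. Other lists were less clean. Of 4 gland markers, 3 were highest in the residual fraction and 1 (Sox9) in brain. Bpifa1, a gland marker, read 3432.4 in OSNs, 12936 in the residual fraction and 34.6 in brain. Of 6 ependyma and choroid plexus markers, 1 (Foxj1) was highest in OSNs, 2 in the residual fraction and 3 in brain. Of 6 sustentacular (supporting) cell markers, 3 were at least 2-fold lower in OSNs than in the rest of the epithelium, with Notch2 7.60-fold lower, and 3 were within 2-fold. Cyp2g1, a P450 enzyme of these cells, read 3821.8 in OSNs against 2657.3, and the summed signal of the list, over different probe sets, was 8083.4 in OSNs, 12203.6 in the residual fraction and 4302.4 in brain. The part of supporting cells in the axoneme signal was not tested. Ratios from 100 probe sets present on both chips differed between chips with an SD of 0.25 (OSNs over the residual fraction), 0.29 (OSNs over brain) and 0.34 (the residual fraction over brain) log2 units. Chip A gave ratios that were higher than those of chip B by a mean of 0.23 log2 units for OSNs over the residual fraction, with mean offsets of -0.19 for OSNs over brain and -0.42 for the residual fraction over brain. The SD between counted probe sets of 1 gene was 0.62, 0.79 and 0.78 for these comparisons. A 2-fold difference is a log2 ratio of 1. None of these values stands for the spread between animals.

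Axoneme genes were mostly highest in OSNs. Of the 34 probe sets that reached the chip median somewhere, 32 had their highest signal in OSNs, 1 in the residual fraction (Cfap43) and 1 in brain (Tppp3). Most of the 34 reached it in OSNs only, so these had to be highest there. Over all named probe sets that reached it, 30% were highest in OSNs. Against the residual fraction, 26 genes were counted, of which 24 reached a 2-fold excess in OSNs, 1 was lower and 1 was within 2-fold. Over all 12254 counted genes, 12.8% exceeded 2-fold and 18.7% lower. The median log2 ratio was 2.52 for the 26 genes and -0.05 for all counted genes. Of these 26 genes, 13 passed the chip median by their OSN signal alone, so their ratios had to favour OSNs. The 13 were Dnah11, Dnaic1, Dnaic2, Tekt1, Tekt4, Dnajb13, Hydin, Spag16, Spef2, Ccdc113, Armc4, Lrrc6 and Cfap52. Of the 31 genes, 5 were not counted at all. With genes counted by their mean log2 signal over the 3 arrays, an alternative added after seeing the data, 17 genes were counted, of which 16 exceeded 2-fold in OSNs and none was lower, where 12.3% of all genes were higher and 14.7% lower.

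**Figure D1:**
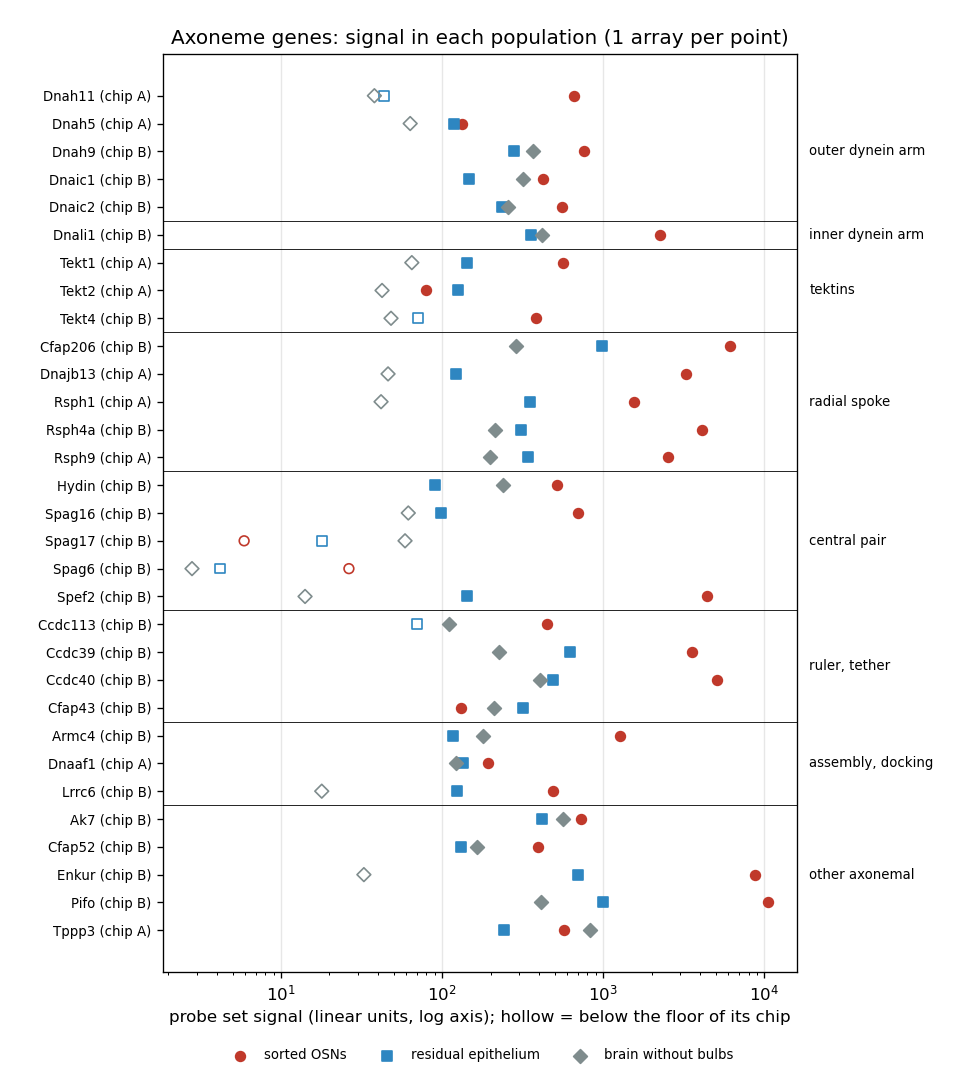
Signal of each axoneme gene in sorted OSNs (circles), residual epithelium (squares) and brain without olfactory bulbs (diamonds), 1 array per point, on a log axis, with genes grouped by role and hollow marks below the floor of their chip. Values are to be read within a row, and in the radial spoke rows the OSN signal lies to the right of both other populations for all 5 genes.

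Against brain, which was compared with the same OSN arrays, an excess of 2-fold or more in OSNs was seen for 22 of 25 counted axoneme genes, and none was lower. Over all 12380 counted genes, 18.5% were higher and 21.1% lower, or 14% and 25.7% with the arrays scaled on the probe sets that both chips carry. Under that scaling 18 of 26 axoneme genes were higher and 1 was lower, Cfap43, with a log2 ratio of -1.02. The median log2 ratio was 2.999, against 0.05 for all counted genes, and 16 of the 25 genes were counted through the OSN array only. The ratios of these 16 had to favour OSNs. They were Dnah11, Tekt1, Tekt4, Dnajb13, Rsph1, Rsph4a, Rsph9, Hydin, Spag16, Spef2, Ccdc113, Ccdc39, Armc4, Lrrc6, Cfap52 and Enkur. Counted by mean signal, 14 of 17 genes were higher and none was lower, with 18.4% of all genes higher and 16.8% lower.

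**Figure D2:**
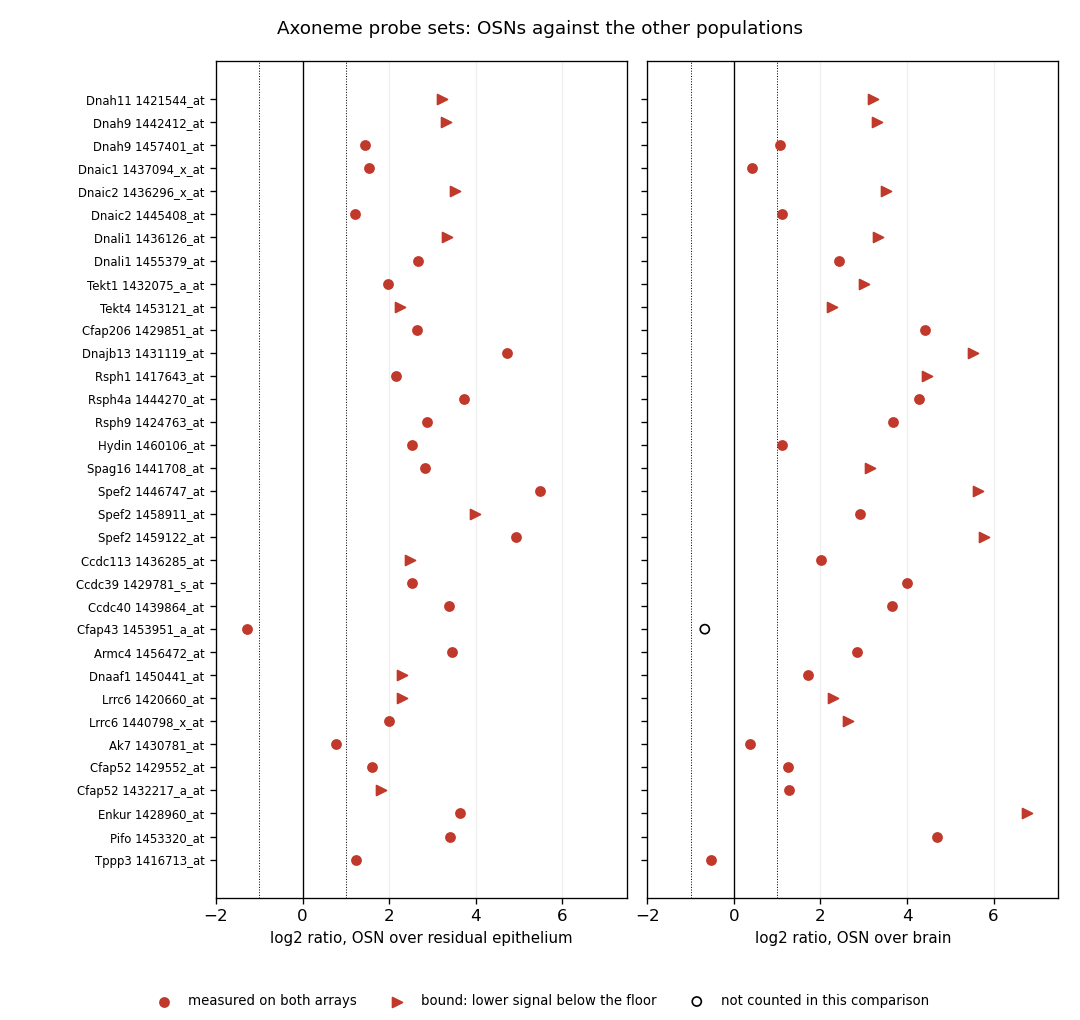
Log2 ratio of OSNs over residual epithelium (left) and over brain (right) for the 34 axoneme probe sets that reached their chip median in some population, with triangles for lower bounds and dotted lines at 2-fold. Cfap43 lies left of 0 in both panels (not counted against brain) and Tppp3 in the brain panel only; both panels share the OSN arrays.

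The outer dynein arm genes gave mixed values. Dnah11, a heavy chain of the outer arm, read 655.1 in OSNs, 43.4 in the residual fraction and 38.0 in brain, so OSNs exceeded either by at least 9.32-fold. It was counted through the OSN array only, so both ratios had to favour OSNs. Dnah5, the heavy chain central to outer arms in airway cilia, stayed under the chip median in all populations, at 133.1, 117.9 and 63.4 in the same order. Dnah5 was therefore not counted, and its OSN and residual signals were close to each other.

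Dnah9, another outer arm heavy chain, was read by a pair of probe sets that differed in size. One (1457401_at) gave 763.5 in OSNs, 278.5 in the residual fraction and 364.5 in brain, or 2.74-fold and 2.09-fold higher in OSNs. The other (1442412_at) gave 794.7, 33.2 and 49.5, or at least 9.97-fold higher than either. Both probe sets were highest in OSNs, and the sizes of their ratios differed.

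The intermediate chain gene Dnaic2, whose product sits at the base of the outer arm, also had a pair of probe sets with ratios of different size. Probe set 1445408_at gave 552.7 in OSNs, 236.9 in the residual fraction and 255.6 in brain (2.33-fold and 2.16-fold), and 1436296_x_at gave 911.7, 53.5 and 68.7 (at least 11.4-fold against both). Dnaic1, its partner chain, had 425.2, 147.1 and 320.2, which was 2.89-fold above the residual fraction but within 2-fold of brain (log2 ratio 0.41). Its other probe set read 204.3, 30.9 and 31.0 and was not counted. Probe sets with the suffix _x hold probes that can match other transcripts. They include 1437094_x_at, the counted probe set of Dnaic1, 1436296_x_at of Dnaic2 and 1440798_x_at, the chip B probe set of Lrrc6 described below. The inner arm gene Dnali1 was high in OSNs on both its probe sets, with 2262.3, 355.1 and 419.1 on 1455379_at (6.37-fold and 5.40-fold) and 803.3, 21.4 and 27.8 on 1436126_at (at least 10.1-fold against both).

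Of the genes that place dynein arms on the axoneme or assemble them in the cytoplasm, Armc4, needed for outer arm docking, had 1278.4 in OSNs, 116.5 in the residual fraction and 178.5 in brain. It was 10.97-fold and 7.16-fold higher in OSNs. Only its OSN signal reached the chip median, so both ratios had to favour OSNs. Lrrc6, an assembly factor, read 491.5, 123.9 and 17.9 on chip B (3.97-fold and at least 6.17-fold) and 345.3, 46.9 and 32.4 on chip A (at least 4.91-fold against both). It was the only gene of the set measured on both chips, and the direction was the same on each. On both chips only its OSN signal reached the chip median, so this direction was fixed by the filter. Dnaaf1, another assembly factor, was represented by a probe set under the chip median (194.2, 134.4 and 121.8), while its other probe set, 1450441_at, gave 344.9, 56.1 and 105.0. That second probe set was at least 4.91-fold above the residual fraction and 3.28-fold above brain, and it reached the chip median in OSNs only.

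All 5 radial spoke genes exceeded 2-fold in OSNs in both comparisons, where 12.8% (residual fraction) and 18.5% (brain) of all counted genes did. Against brain, 4 of the 5 were counted through the OSN array only, so their ratios had to favour OSNs. Against the residual fraction this applied to 1. Dnajb13, a co-chaperone built into the spoke, read 3251.1 in OSNs, 121.9 in the residual fraction and 46.2 in brain. It was 26.7-fold above the residual fraction, the second highest ratio of the set, and at least 46.2-fold above brain. Only its OSN signal reached the chip median.

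The spoke head genes Rsph4a, Rsph9 and Rsph1 differed in how far the residual fraction lay above brain. Rsph4a read 4125.2 in OSNs, 311.1 in the residual fraction and 212.5 in brain, 13.3-fold and 19.4-fold higher in OSNs. Rsph9 read 2533.4, 343.5 and 199.3, 7.38-fold and 12.7-fold higher. Rsph1 read 1561.9, 349.7 and 41.8, 4.47-fold and at least 22.2-fold higher, with its brain signal below the floor. Cfap206, a protein of the spoke base, read 6119.5, 980.7 and 288.8, 6.24-fold and 21.2-fold higher. In each of these 4 genes OSNs were highest, the residual fraction was intermediate and brain was lowest, although for Rsph4a and Rsph9 the residual fraction and brain differed by less than 2-fold.

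Central pair genes split into those high in OSNs and those not measured above the floor. The 3 high ones, Spef2, Spag16 and Hydin, were counted through the OSN array only in both OSN comparisons. Their ratios therefore had to favour OSNs. Spef2, a protein of a central pair projection, had the highest ratio of the set on its representative probe set, 1459122_at, with 4391.4 in OSNs, 142.7 in the residual fraction and 14.1 in brain (30.8-fold and at least 55.1-fold). Its other probe sets gave 3976.1, 87.9 and 4.4 (45.2-fold and at least 49.9-fold) and 1265.6, 39.6 and 168.5 (at least 15.9-fold and 7.51-fold). All 3 had their highest signal in OSNs, the only population in which they reached the chip median. On the first and second of these probe sets the residual signal, above the floor, was 3.25% and 2.21% of that in OSNs, and for Omp, the gene behind the sort, it was 2.25%. This share was larger for other genes of the set, such as Cfap206 (16.0%) and Rsph1 (22.4%). Which cells gave the residual signal was not tested.

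Spag16, a central pair protein, read 702.6, 98.7 and 61.7 on 1441708_at, 7.12-fold above the residual fraction and at least 8.82-fold above brain. Its other 3 probe sets were below the floor in every population. Hydin, which forms another central pair projection, read 519.3, 90.5 and 239.1, 5.74-fold above the residual fraction and 2.17-fold above brain, and a second probe set lay below the floor throughout. Thus brain lay between the other populations for Hydin, unlike in the spoke genes.

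Spag17 and Spag6, both central pair proteins, gave no measurable signal. Spag17 read 5.9, 18.0 and 58.9 on one probe set and 7.5, 5.1 and 9.7 on the other. Spag6 read 26.4, 4.2 and 2.8. All were below the floor, so no ratio is given. RefSeq lists Spag6 as a synonym of Spag6l as well, whose probe set read 18.7 in OSNs, 54.0 in the residual fraction and 87.2 in brain, none reaching the chip median.

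Ccdc39 and Ccdc40 form the ruler that sets the spacing of spokes and inner arms along the doublet, and both were high in OSNs. Ccdc40 read 5115.8 in OSNs, 487.6 in the residual fraction and 408.2 in brain, 10.5-fold and 12.5-fold higher. Ccdc39 read 3573.8, 621.6 and 224.4 on 1429781_s_at, its only counted probe set, 5.75-fold and 15.9-fold higher. Its other probe sets stayed under the chip median at 193.1, 9.4 and 4.0 and at 152.4, 83 and 18. Ccdc113, a coiled-coil protein of cilia, read 446.2, 70.1 and 110.1, at least 5.60-fold and 4.05-fold higher. Its OSN signal alone reached the chip median, so both ratios had to favour OSNs.

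Cfap43, part of the tether of an inner dynein arm, was the exception of the set. It read 131.2 in OSNs, 318.5 in the residual fraction and 209.4 in brain, 2.43-fold lower in OSNs than in the residual fraction, and only the residual array reached the chip median. Its other probe sets, under the chip median everywhere, read 30.5, 159.6 and 130.8 and 85.4, 107.7 and 185.1. All 3 were lowest in OSNs. The call rested on signals near the chip median and was lost with a floor at percentile 40 of the chip or a pseudocount (log2 ratio within 1).

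Among the tektins of the main set, which run inside the wall of the doublet, 2 were higher in OSNs and 1 was not measured above the chip median. These 2 were counted through the OSN array only in both OSN comparisons, so their ratios had to favour OSNs. Tekt1 read 562.0 in OSNs, 143.6 in the residual fraction and 64.9 in brain, 3.91-fold and at least 7.99-fold higher. Tekt4 read 382.4, 70.6 and 48.2, at least 4.80-fold higher than either. Tekt2 read 79.6, 126.4 and 42.4 and was not counted. Its OSN signal was below that of the residual fraction, unlike those of Tekt1 and Tekt4. Tekt3 and Tekt5 are on the further lists described below. Tekt3 read 151.3, 135.3 and 63.3, and Tekt5 read 13.5, 82.2 and 309.1. Neither was counted against the residual fraction, and Tekt5 was at least 3.88-fold lower in OSNs than in brain.

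Other proteins of the axoneme included the highest ratio to brain. Enkur, which binds calmodulin and sits inside the doublet, read 8723.4 in OSNs, 700.2 in the residual fraction and 32.7 in brain, 12.5-fold and at least 109-fold higher. Against brain it was counted through the OSN array only, so that ratio had to favour OSNs. Pifo, known from the control of primary cilia, read 10571, 993.4 and 410.8, 10.6-fold and 25.7-fold higher. Both had a residual signal under 10% of that in OSNs (8.03% and 9.40%). Cfap52, another protein of the doublet, read 394.8, 130.3 and 165.2 (3.03-fold and 2.39-fold) and, on its other probe set, 280.9, 52.0 and 116.3 (at least 3.52-fold and 2.42-fold).

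Ak7, an adenylate kinase of cilia, and Tppp3, a tubulin-binding protein that promotes microtubule assembly, were not called in 1 or both OSN comparisons. Ak7 read 724.6 in OSNs, 420.3 in the residual fraction and 563.2 in brain, within 2-fold in all comparisons (log2 ratios 0.79 and 0.36 for OSNs over the others). Tppp3 read 570.9, 243.8 and 823.6, so it was 2.34-fold above the residual fraction and had a log2 ratio of -0.53 against brain. Tppp3 is also used by cells without motile cilia. Its highest signal was that of brain.

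**Figure D3:**
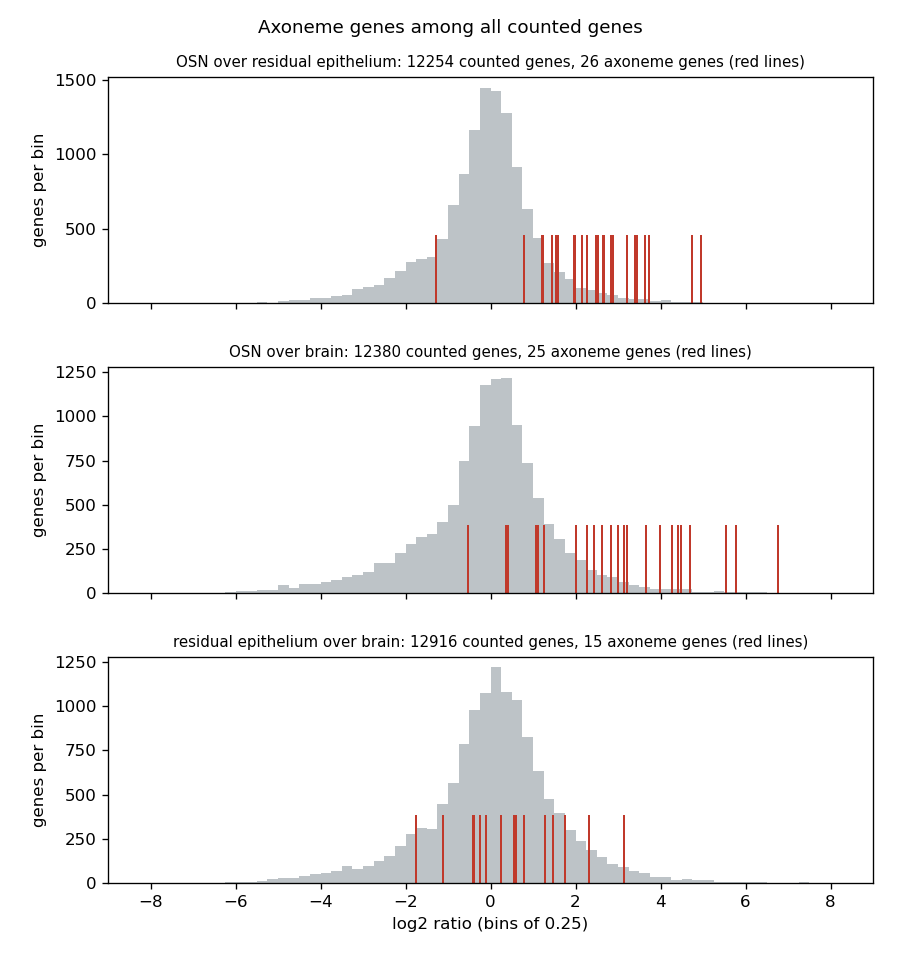
Distribution of log2 ratios over all counted genes (grey, bins of 0.25) with each counted axoneme gene as a red line, for the 3 comparisons. The red lines lie mostly to the right of 1 in both OSN comparisons, and from -1.76 to 3.14 between residual epithelium and brain.

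Between the residual fraction and brain the axoneme genes were spread on both sides. Of 15 counted genes, 5 exceeded 2-fold in the residual fraction and 2 were lower, while 22.5% of all 12916 counted genes were higher and 18.9% lower. Of the 15, 6 were counted through the residual array only and 2 through the brain array only, which fixed their direction. Among the genes past 2-fold this applied to Enkur, Rsph1 and Ccdc39 (higher) and Dnaic1 (lower). With array scaling by the shared probe sets, 17.8% and 23.8% of all genes and 4 and 3 of 16 axoneme genes were higher and lower, the lower ones being Hydin, Tppp3 and Dnaic1 (log2 ratios -1.86, -1.80 and -1.58). The median log2 ratio was 0.55, against 0.12 for all counted genes, and it was -0.058 with the arrays scaled on the 100 probe sets that both chips carry, where that of all genes was -0.14. Counted by mean signal, 5 of 17 genes were higher and 2 lower, with 20.2% and 16.1% of all genes. The higher genes were Enkur (at least 8.79-fold), Rsph1 (at least 4.97-fold), Cfap206 (3.40-fold), Ccdc39 (2.77-fold) and Pifo (2.42-fold). Tppp3 was 3.38-fold and Dnaic1 2.18-fold lower. Dnali1, Dnaic2 and Dnah9, all of the dynein arms, differed by under 2-fold (log2 ratios -0.24, -0.11 and -0.39). No tektin, central pair, assembly or docking gene was counted, since none reached the chip median in either population.

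Probe sets of 1 gene had the same direction wherever several were counted. This held for 6 of 6 genes (Dnah9, Dnaic2, Dnali1, Spef2, Lrrc6 and Cfap52) in each OSN comparison. The filter fixed much of this. Every counted probe set of Spef2, Lrrc6 and Cfap52 reached the chip median in OSNs only, so its ratio had to favour OSNs. The same was true of 1442412_at (Dnah9), 1436296_x_at (Dnaic2) and 1436126_at (Dnali1). Against the residual fraction the sizes differed most for Dnaic2, from 1.22 to at least 3.52 log2 units, and against brain for Spef2, from 2.91 to at least 5.78.

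A further 87 axoneme genes were listed for comparison, of which 67 were on the arrays. Against the residual fraction, 34 of 53 counted genes exceeded 2-fold in OSNs and 2 were lower, with a median log2 ratio of 1.51. Of the 53 genes, 18 were counted through the OSN array only and 2, the lower ones, through the residual array only. Against brain, 41 of 54 were higher and 3 lower, with a median of 2.23. Of the 54 genes, 27 were counted through the OSN array only and 3, the lower ones, through the brain array only. Ratios of genes counted through a single array had to favour its population. Counted by mean signal, 22 of 37 genes were higher and 1 lower against the residual fraction, with a median of 1.16, and 27 of 37 were higher and 1 lower against brain, with a median of 2.02. Over all genes counted by the main filter, 12.8% were higher and 18.7% lower against the residual fraction, and 18.5% and 21.1% against brain. Counted by mean signal, these shares were 12.3% and 14.7%, and 18.4% and 16.8%.

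By role, 7 of 9 counted further central pair genes were higher than in the residual fraction, led by Cfap54 (at least 19.2-fold) and Cfap69 (16.4-fold), with Stk36 and Cfap221 at log2 ratios of 0.29 and 0.32. Of the spoke and nexin link genes 8 of 12 were higher, led by Drc1 (13.5-fold) and Iqcd (8.01-fold), with Cfap61 at 0.51 and Rsph3a at 0.58. Among docking and assembly genes 8 of 14 were higher, led by Ttc25 (at least 11.5-fold), which docks outer arms, and Zmynd10 (at least 8.83-fold), an assembly factor, with Dnaaf2 at -0.70 and Ccdc103 at -0.02. Of the proteins inside the doublet 7 of 11 were higher, led by Meig1 (6.61-fold) and Spag8 (at least 6.18-fold), with Efcab1 at -0.56 and Cfap45 at 0.43. The further axonemal dynein genes were the only one of these 5 lists with members at least 2-fold lower. In it 4 of 7 were higher, with Dnah7a 4.17-fold and Dnah2 3.81-fold, and Dnah12 (at least 3.16-fold) and Dnah1 (2.83-fold) were lower. These 2 lower genes were counted through the residual array only, so their ratios had to favour the residual fraction. Genes counted through the OSN array only were 4 of the central pair list, 5 of the spoke and nexin list, 5 of the docking and assembly list, 3 of the doublet list and 1 of the dynein list. Counted by mean signal, the docking and assembly list changed most in its median, to 0.42 with 3 of 8 genes higher, and neither Ttc25 nor Zmynd10 was among its highest 2 ratios, which were those of Ccdc151 and Cfap300. The counts of higher genes were then 6 of 8 for the central pair, 5 of 9 for spokes and nexin links, 5 of 7 for doublet proteins and 3 of 5, with 1 lower, for dyneins. The difference between the lists was not tested.

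**Figure D4:**
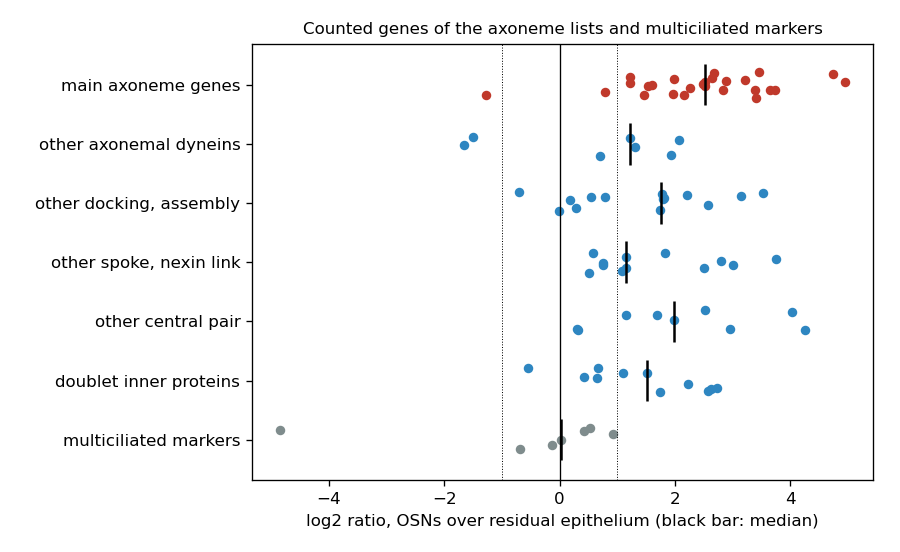
Log2 ratio of OSNs over residual epithelium for counted genes of the main axoneme set, of 5 further axoneme lists and of multiciliated cell markers, with 1 point per gene, black bars at medians and dotted lines at 2-fold. The medians are 2.52 for the main set and 0.02 for the markers; points sit at their value after the floor, and vertical scatter within a row has no meaning.

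Multiciliated cells of respiratory epithelium or ependyma could also carry these transcripts, so 13 markers of such cells were listed, of which 10 were on the arrays. Of the 7 that were counted, none exceeded the residual fraction 2-fold in OSNs, and the median log2 ratio was 0.02. At the 12.8% of all counted genes, a count of 0 among 7 is close to the background. Against brain 2 of 7 were higher, Sec14l3 by 16.6-fold and Ccno by 2.86-fold, and 2 were lower, Deup1 by at least 3.24-fold and Fam216b by 2.40-fold. Over all counted genes 18.5% were higher and 21.1% lower, so these counts are near the background. Of the 7, 2 were counted through the OSN array only and 2, the lower ones, through the brain array only, which fixed their direction. Ccno, a cyclin needed to make many basal bodies, read 701.2 in OSNs, 525.0 in the residual fraction and 245.2 in brain. Sec14l3 read 8815.3, 4645.9 and 529.5. The summed marker signal, which adds different probe sets and only describes the list, was 11051.9, 8988 and 2746.7. Most of the OSN sum came from Sec14l3 (8815.3), and most of the residual sum from Sec14l3 (4645.9) and Myb (2288.9). Deup1 was below the floor in OSNs and in the residual fraction, and Myb and Trp73 were below it in brain. Myb was 28.8-fold lower in OSNs, and it is also a gene of blood precursors, whose neutrophil and marrow markers were all highest in the residual fraction. The part of multiciliated cells in the axoneme signal of each population was not tested.

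Foxj1, the forkhead factor known to switch on motile cilia genes, read 987.7 in OSNs, 187.4 in the residual fraction and 115.1 in brain. It was 5.27-fold and 8.58-fold higher in OSNs. Only its OSN signal reached the chip median, so both ratios had to favour OSNs. The residual fraction and brain differed by 1.63-fold and were not counted. Any link between Foxj1 and the axoneme signals was not tested.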

How the data were processed

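Each of 6 arrays (3 populations, 2 chips) was deposited as a column of probe set values, each a linear intensity. Per the submitters' processing notes, the authors computed these intensity values with MAS5, named for all arrays except brain on chip A, with no version. Neither the background correction nor the scaling target is given in the sources used. The mean signal between percentile 2 and percentile 98 was 500.016 to 500.263 on each array, so a population in which few transcripts take much RNA has its other signals lowered. The number of arrays limits the precision.

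Probe sets were named from the platform annotation, with symbols updated by Entrez identifier to the GRCm38.p6 RefSeq table. The 64 control probe sets per chip were left out. No axoneme symbol changed. Where a gene had several probe sets, the one whose mean log2 signal ranked highest within its chip stood for it. Floor, filter and the 2-fold threshold are given with the results. All axoneme genes are named. From each further list the 2 highest and 2 lowest counted ratios of OSNs over residual epithelium are named. The genes, lists and motifs were chosen with earlier results of these data known. Simulated arrays were used to test the arithmetic. With 1 array per population and chip, no test was run. Alternatives are given in the closing section. Values were computed in Python 3.11.15 (pandas 2.3.3, numpy 2.4.6) and drawn with matplotlib 3.10.9.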

Additional observations from a re-analysis of the deposited data

How the results depend on the processing

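Of 24 axoneme genes at least 2-fold above residual epithelium, 23 kept that call at 2-fold under every alternative in which they were counted, the exception being Dnaic2 (lowest log2 ratio 0.998). Against brain 18 of 22 did, the exceptions being Cfap52, Dnah9, Dnaic2 and Hydin, and between residual epithelium and brain 4 of 5, the exception being Pifo. Of 741 recomputed ratios of single genes, 32 moved by more than the SD between probe sets of a gene and 0 changed sign from a called value. The filter on mean signal was chosen after seeing the data.

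Counts and medians moved as follows. For OSNs over residual epithelium, the count of higher genes (24 of 26 counted) was 15 of 16 with a filter at percentile 75. It was 7 of 7 on chip A alone. Over all counted genes, 15.7% and 12.6% were then higher. The count of lower genes (1 of 26) was 0 with a floor at percentile 40, a pseudocount or a filter at percentile 75. It was also 0 on chip A alone, at a 3-fold threshold and with the mean filter. In these settings 11.8% to 18.6% of all counted genes were lower. The median (2.52) was 2.06 with the floor at percentile 40, 2.045 with a pseudocount, 2.26 with no filter and 3.05 with the filter at percentile 75. For OSNs over brain, higher genes (22 of 25) were 6 of 7 on chip A alone and 14 of 17 with the mean filter. Over all counted genes, 16.7% and 18.4% were then higher. Lower genes (0 of 25) were 1 of 26 with shared-probe scaling, where 25.7% of all counted genes were lower. The median (2.999) was 3.51 and 2.11 with floors at percentile 10 and percentile 40, 2.47 with a pseudocount, 2.43 with no filter, 3.67 with the filter at percentile 75 or the mean filter, and 2.625 on chip B alone. For residual epithelium over brain, higher genes (5 of 15) were 3 of 15 at 3-fold and 1 of 3 on chip A alone. Over all counted genes, 12.9% and 21.2% were then higher. Lower genes (2 of 15) were 1 of 15 with the floor at percentile 40, a pseudocount or a 3-fold threshold. They were 1 of 5 with the filter at percentile 75 and 1 of 13 without _x and _s probe sets. On chip A alone they were 1 of 3, and on chip B alone 1 of 12. With no filter they were 3 of 31, and with shared-probe scaling 3 of 16. In these settings 12.3% to 23.8% of all counted genes were lower. The median (0.55) was 1.47 with the filter at percentile 75 and -0.058 with shared-probe scaling. Smaller counts on chip A follow from fewer genes there. No paired analysis was possible because each population has 1 array per chip.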

Other observations

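In the further axoneme lists, probe sets of some genes went opposite ways across the populations. For Cfap61, a protein of the radial spoke, 1452480_at on chip A read 297.4 in OSNs, 13.9 in the residual fraction and 30 in brain, whereas 1440783_at on chip B read 211.7, 452.3 and 503.5. Its probe set 1453665_at read 652.9, 459.2 and 408.2. For Dnah2, an inner arm heavy chain, 1438763_at read 488.9, 128.3 and 81.2, while 1454103_at read 107.0, 203.1 and 208.3. Cfap69 was highest in OSNs on all 3 of its probe sets (10808, 8106.8 and 7340.4), with residual signals of 660.8, 315.2 and 145.0 and brain signals of 164.1, 209.1 and 127.6. Which probes lie on which transcripts was not tested.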
